A study of Mus musculus with 18 samples.

Results

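The differentiation of adult germline stem cells of the 129SV mouse background was described from 6 of the 18 arrays of the study. These were the 3 arrays of differentiated adult stem cells and the 3 arrays of undifferentiated adult stem cells of that background, chosen by their labels alone. All 19938 genes with a probe set of their own were members. They came from 35556 probe sets in all, a probe set being a group of short probes along 1 transcript on the Affymetrix Mouse Gene 1.0 ST array. The other 12 arrays held differentiated and undifferentiated embryonic stem (ES) cells of 129SV and undifferentiated adult and ES cells of a Stra8-EGFP/Rosa26 background, with 3 arrays in each group. The labels call the arrays of a group biological replicates. They give no treatment, medium or time for the differentiation, no age of the donor animals, and no statement on feeder cells or on how many cell lines were used. P-values therefore measure only the spread between arrays within a group, which was estimated over all 18 arrays in 6 groups. An SE is thus not the scatter of the 3 and 3 values printed beside it.

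Stem cells derived from the germ line of the adult testis can be grown in a state that resembles that of ES cells, with the transcription factors Pou5f1, Sox2 and Nanog. On leaving that state, mouse pluripotent cells can form primitive endoderm, an early extraembryonic lineage with the factors Gata4, Gata6, Sox7 and Sox17. Its derivatives are parietal endoderm, which lays down a thick basement membrane of laminin and collagen IV, and visceral endoderm, which takes up nutrients and secretes plasma proteins. Retinoic acid is a signal that induces many genes of this exit through nuclear receptors.

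All values below are log2 signals, so that a difference of 1 is a 2-fold change, and each change is the differentiated mean minus the undifferentiated mean with its standard error (SE). The values of the 3 differentiated arrays correlated with each other at a mean r of 0.996 per array or above, and those of the undifferentiated arrays at 0.995 or above. Between the states the mean r was 0.939. The median SD between replicates was 0.098 in differentiated and 0.094 in undifferentiated cells. No detection call was available, so a low signal could not be set against background, and the size of a change from or to a signal near the lower quartile is uncertain. The lower quartile of all probe sets lay between 5.90 and 5.97 on the differentiated arrays and between 5.85 and 5.91 on the undifferentiated ones. The number of arrays limits the precision.

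The labels were first set against markers of cell types. Of 7 markers of pluripotent cells, 7 fell, and their mean level was 10.04 to 10.18 on the differentiated arrays, against 11.67 to 11.73 on the undifferentiated arrays. Of 8 fibroblast markers, 6 fell and 2 rose, with a mean level of 9.58 to 9.67 in differentiated and 10.48 to 10.53 in undifferentiated cells, so that both states held fibroblast-type transcripts. Of 6 visceral endoderm markers, 3 rose and 1 fell, with a mean level of 7.66 to 7.82 in differentiated and 6.65 to 6.80 in undifferentiated cells. That mean rests largely on Cubn (5.07), the only 1 of them to rise at least 2-fold. The median change of the 6 was 0.34. Of 4 germ cell markers, 1 rose and 3 fell, and their mean level was 6.86 to 6.94 in differentiated and 6.64 to 6.81 in undifferentiated cells. Of 4 endothelial markers 2 rose and 2 fell, of 4 neuronal markers 0 rose and 4 fell, of 4 cardiac muscle markers 1 rose and 2 fell, of 5 macrophage markers 2 rose and 2 fell, and of 3 blood markers 0 rose and 1 fell. Fewer cells of a type and less RNA per cell cannot be told apart in such bulk samples.

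Differentiation changed the signal of 11906 of 19938 genes at an adjusted p under 0.05 (limma, Benjamini-Hochberg over all genes tested). Of all genes, 27.5% rose (5478 genes) and 32.2% fell (6428 genes). A change of at least 2-fold was found in 2371 genes: 7.53% of all genes rose this far (1502 genes) and 4.36% fell this far (869 genes). With each array centred on its median the called genes were 4764 rises and 8517 falls, and 1243 and 1104 at 2-fold or more. With quantile normalisation they were 4919 rises and 8192 falls, and 1278 and 1104 at 2-fold or more. The median change of all genes was -0.08 as deposited, -0.18 after centring and -0.15 after quantile normalisation, so small changes depend on the scaling. All of the 1502 rises of at least 2-fold, and 868 of the 869 such falls, had no overlap between the 3 differentiated and the 3 undifferentiated arrays. A 2-fold change is many times the median SD between replicates, so this was nearly fixed by the choice of genes. Of all called genes, 5347 of 5478 rises and 6060 of 6428 falls had no overlap. At larger sizes rises outnumbered falls: 301 genes rose and 101 fell at least 4-fold, 83 rose and 20 fell at least 8-fold, and 25 rose and 4 fell at least 16-fold. A rise of at least 32-fold was measured for 7 genes and a fall of that size for 0. For 82.8% of the genes (16516 genes) the 95% confidence interval of the change lay within 2-fold in either direction.

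**Figure D1:**
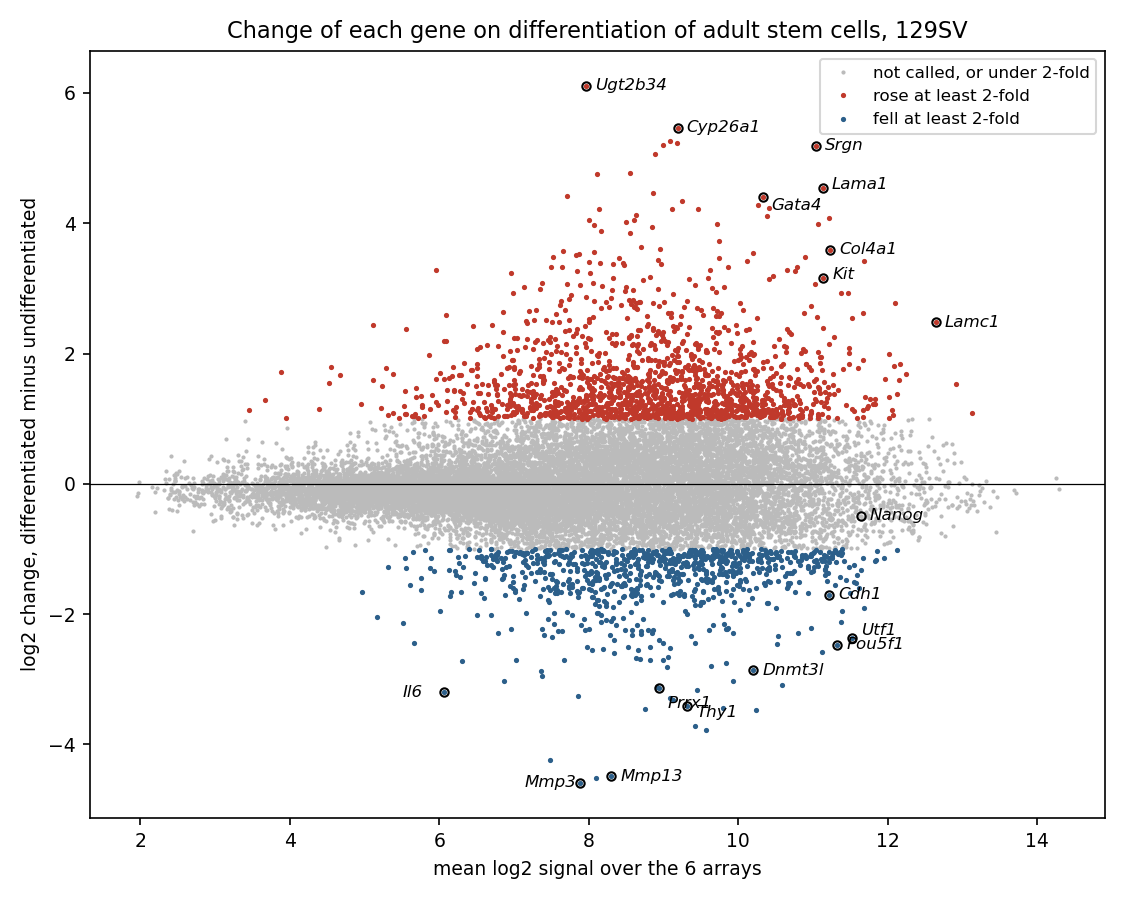
Each point is 1 of 19938 genes, with its mean log2 signal over the 6 arrays on the x axis and its log2 change, differentiated minus undifferentiated, on the y axis. Red points rose and blue points fell at least 2-fold at an adjusted p under 0.05, and open circles mark genes described in the text. The rises reach 6.11 for Ugt2b34 and the falls -4.59 for Mmp3, while Nanog lies inside the grey band.

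Transcription factors of primitive endoderm were among the largest rises. Of 30 endoderm factors measured, 15 rose, 6 fell and 9 did not pass the test (15 and 10 called with quantile normalisation), and 11 rose and 1 fell at least 2-fold. Gata4, a zinc finger factor of primitive endoderm and heart, had 12.58, 12.47 and 12.53 in differentiated cells, against 7.89, 8.41 and 8.09 in undifferentiated cells. This was a change of 4.40 ± 0.10 (21.1-fold, adjusted p = 2.44e-15), and the groups lay far apart. Gata6, which can drive ES cells into primitive endoderm when forced on, had 12.55, 12.46 and 12.22 in differentiated cells, against 8.37, 8.05 and 7.98 in undifferentiated cells, a change of 4.28 ± 0.11. The Sox factors that follow them in the mouse embryo rose with them. Sox7 had 10.74, 10.67 and 10.54 in differentiated cells, against 7.14, 7.36 and 7.13 in undifferentiated cells (3.44 ± 0.08), and Sox17 had 9.40, 9.55 and 9.47 in differentiated cells, against 6.13, 6.42 and 6.08 in undifferentiated cells (3.27 ± 0.10). Foxa2, a forkhead factor of visceral and gut endoderm, had 8.88, 9.29 and 9.14 in differentiated cells, against 7.18, 6.94 and 7.26 in undifferentiated cells, a change of 1.97 ± 0.09 without overlap. Hnf4a, a nuclear receptor of visceral endoderm and liver, changed by 0.71 ± 0.10 (adjusted p = 9.92e-06). Other risers were Isx (2.21), Prox1 (2.20), Klf6 (1.57) and Nr2f2 (1.38). Among the other factors, Pdx1 (-0.44), Eomes (-0.51) and Hhex (-0.72) fell, and Foxa1, Foxa3, Sox9, Gata5 and Mixl1 did not pass the test. Among the 6 GATA factors, a list written after values were seen, 4 rose and 1 fell, Gata3 by 1.57 ± 0.11 and Gata2 by 0.53 ± 0.07.

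Genes of the basement membrane and of parietal endoderm had the highest median change of the 55 gene groups examined. The members of these groups were chosen with earlier results of these data known, so this rank is a description and not a test. Of 19 measured, 17 rose and 1 fell, and 15 rose at least 2-fold, with a median change of 2.48 against -0.08 over all genes. Lama1, the laminin alpha chain of the first embryonic basement membranes, had 13.40, 13.44 and 13.37 in differentiated cells, against 8.93, 8.83 and 8.83 in undifferentiated cells, a change of 4.54 ± 0.06 (23.3-fold, adjusted p = 1.28e-17). Its partner chains moved with it. Lamb1 had 13.51, 13.47 and 13.48 in differentiated cells, against 10.67, 10.71 and 10.73 in undifferentiated cells (2.78 ± 0.05), and Lamc1 had 13.90, 13.93 and 13.82 in differentiated cells, against 11.39, 11.39 and 11.45 in undifferentiated cells (2.48 ± 0.05). The collagen IV chains that form the network beside laminin had the same direction. Col4a1 had 13.13, 13.10 and 12.88 in differentiated cells, against 9.46, 9.40 and 9.46 in undifferentiated cells (3.59 ± 0.07), and Col4a2 had 12.72, 12.71 and 12.50 in differentiated cells, against 9.23, 9.16 and 9.08 in undifferentiated cells (3.49 ± 0.07). Srgn, the core protein of the proteoglycan serglycin, had 13.66, 13.64 and 13.60 in differentiated cells, against 8.63, 8.38 and 8.33 in undifferentiated cells, a change of 5.19 ± 0.08 (36.4-fold). Further risers were Plat (3.13), which encodes tissue plasminogen activator, Pth1r (2.75), the receptor of parathyroid hormone-related protein, Pdgfra (3.19), a growth factor receptor of primitive endoderm and of mesenchyme, and Fst (2.11), which encodes the activin inhibitor follistatin. The linkers Nid1 (1.77) and Nid2 (1.49), Sparc (1.53) and perlecan, Hspg2 (1.20), rose as well. Thbd, the endothelial and parietal endoderm protein thrombomodulin, fell (-0.32 ± 0.06), and Lama5 did not pass the test.

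Not all chains of these families rose. Of 10 laminin chains measured, 4 rose, 3 fell and 3 did not pass the test, with a median change of 0.09. Of 6 collagen IV chains 3 rose and 3 did not pass, with a median of 0.88. Both medians lie below that of the basement membrane list. These lists, and that of collagen-modifying enzymes, were written after values were seen. Of 18 collagen-modifying enzymes, 15 rose and 1 fell, and 8 rose at least 2-fold. P4ha2, an alpha subunit of the prolyl 4-hydroxylase that lets collagen helices form, had 11.97, 11.99 and 11.98 in differentiated cells, against 8.88, 8.71 and 8.94 in undifferentiated cells (3.14 ± 0.06). P4ha1, the other main alpha subunit, changed by 2.62 ± 0.07. Plod2, a lysyl hydroxylase of collagen, had 12.99, 12.95 and 12.84 in differentiated cells, against 9.998, 9.98 and 10.03 in undifferentiated cells (2.92 ± 0.09), and the collagen chaperone gene Serpinh1 changed by 2.00 ± 0.06.

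Visceral endoderm is known both for the uptake of proteins by endocytosis and for the secretion of plasma proteins, and the lists of these functions were examined apart. Of 12 uptake genes, 9 rose and 2 fell, and 7 rose at least 2-fold, with a median change of 1.14. Cubn, the receptor cubilin for vitamin B12-intrinsic factor and many proteins, had 11.47, 11.40 and 11.40 in differentiated cells, against 6.34, 6.29 and 6.44 in undifferentiated cells, a change of 5.07 ± 0.07 (33.5-fold, adjusted p = 2.06e-17). Dab2, the adaptor that couples such receptors to clathrin, had 12.53, 12.43 and 12.41 in differentiated cells, against 9.15, 9.07 and 9.17 in undifferentiated cells (3.33 ± 0.06) on its brighter probe set. Its other probe set changed by -0.25 and did not pass the test (adjusted p = 0.118), and the mean of both changed by 1.54. Lrp2, the receptor megalin that works with cubilin, changed by 1.67 ± 0.06, and Lgmn, a lysosomal protease, by 2.63 ± 0.05. Amn, whose product amnionless carries cubilin to the membrane, fell to 7.08, 6.90 and 6.98 in differentiated cells, against 7.55, 7.48 and 7.46 in undifferentiated cells (-0.51 ± 0.07). Of 28 plasma protein genes, 7 rose, 6 fell and 15 did not pass, and with centred arrays 7 rose and 11 fell. The retinol carrier Rbp4 had 9.80, 9.85 and 9.90 in differentiated cells, against 6.33, 6.44 and 6.11 in undifferentiated cells (3.56 ± 0.10). Next came Pla2g12b (2.47), Mttp (2.36), which loads lipid onto apolipoprotein B, the fibrinogen chain Fgb (2.24) and prothrombin, F2 (1.74). The classical markers of visceral endoderm changed little or overlapped. Afp, alpha-fetoprotein, had 5.85, 6.17 and 6.13 in differentiated cells, against 5.73, 5.95 and 5.71 in undifferentiated cells, which overlapped (adjusted p = 0.069). Without differentiated replicate 1 its change was 0.36 (adjusted p = 0.0213), and without undifferentiated replicate 2 it was 0.34 (adjusted p = 0.0367). Apoa1 had 7.61, 7.55 and 7.90 in differentiated cells, against 7.57, 7.67 and 7.61 in undifferentiated cells (adjusted p = 0.652), also overlapping, and Ttr changed by 0.42 ± 0.12 (adjusted p = 0.00451). The apolipoprotein genes Apoe (-0.87) and Apoc1 (-1.02) fell.

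Several genes of the retinoic acid pathway were among the large changes. Of 22 genes of synthesis, breakdown, transport and reception, 8 rose and 7 fell, and 7 rose and 2 fell at least 2-fold, with a median change of 0.07. Over all genes 27.5% rose and 32.2% fell, so the counts of calls lie near the shares over all genes. At 2-fold or more the shares over all genes were 7.53% and 4.36%. Cyp26a1, the cytochrome that breaks down retinoic acid and is itself induced by it, had 11.91, 12.03 and 11.84 in differentiated cells, against 6.35, 6.67 and 6.35 in undifferentiated cells. This was a change of 5.47 ± 0.11 (44.3-fold, adjusted p = 3.81e-16), the largest of the 22. Cyp26b1, a second enzyme of the same kind, had 10.46, 10.66 and 10.62 in differentiated cells, against 7.58, 7.70 and 7.70 in undifferentiated cells (2.92 ± 0.09). Dhrs3, which turns retinal back into retinol, had 11.64, 11.66 and 11.51 in differentiated cells, against 7.80, 7.68 and 8.15 in undifferentiated cells (3.72 ± 0.10), and Rdh10, which runs the opposite step, changed by 1.83 ± 0.06. Stra6, the membrane receptor that takes up retinol, had 10.74, 10.63 and 10.59 in differentiated cells, against 7.08, 7.37 and 7.40 in undifferentiated cells (3.37 ± 0.08). The receptors split: Rarb had 8.35, 8.35 and 8.53 in differentiated cells, against 5.96, 5.94 and 5.81 in undifferentiated cells (2.50 ± 0.10), while Rarg fell to 8.87, 8.85 and 8.89 in differentiated cells, against 10.33, 10.30 and 10.36 in undifferentiated cells (-1.46 ± 0.05), and Rara (-0.71) fell too. Crabp1, a cellular binding protein of retinoic acid, had 10.75, 10.56 and 10.83 in differentiated cells, against 12.15, 12.17 and 12.23 in undifferentiated cells (-1.47 ± 0.08). Aldh1a2, the main synthesising enzyme of the embryo, did not pass the test, whereas Aldh1a1 (3.88) of the same enzyme family rose.

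Cyp26a1 and Rarb are textbook targets of the retinoic acid receptor, which binds a pair of half-sites set 5 bases apart, called DR5. Such a pair was found in 11 of 19177 RefSeq promoters of the genes tested (0.057%), a promoter being the 250 bases before to 50 bases after the start site, on either strand. Both promoters are shown here from GRCm38.p6 with the DR5 match in capitals, as the 250 bases before the start site. Cyp26a1 lies at chr19:37697558-37697807 on the plus strand with the match starting 32 bases before the start site, and Rarb at chr14:16575477-16575726 on the minus strand with the match 53 bases before it. Rarb was chosen for printing after its values were seen.
Cyp26a1: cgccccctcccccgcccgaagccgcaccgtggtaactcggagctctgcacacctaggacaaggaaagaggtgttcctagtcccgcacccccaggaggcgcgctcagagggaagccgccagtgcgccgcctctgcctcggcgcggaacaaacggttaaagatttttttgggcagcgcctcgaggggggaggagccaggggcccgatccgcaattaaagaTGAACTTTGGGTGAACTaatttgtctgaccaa
Rarb: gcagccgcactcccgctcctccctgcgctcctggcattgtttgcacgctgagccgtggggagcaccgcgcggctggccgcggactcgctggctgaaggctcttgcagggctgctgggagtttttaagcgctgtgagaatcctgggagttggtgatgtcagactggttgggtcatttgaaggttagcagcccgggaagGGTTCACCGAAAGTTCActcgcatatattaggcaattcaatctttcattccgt
Of the 11 genes with such a promoter, 3 rose (Cyp26a1, Rarb and, by 0.23, Blvrb), 3 fell and 5 did not pass the test, with a median change of 0.08. Over all genes 27.5% rose and 32.2% fell, so these counts lie near the shares over all genes.

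**Figure D2:**
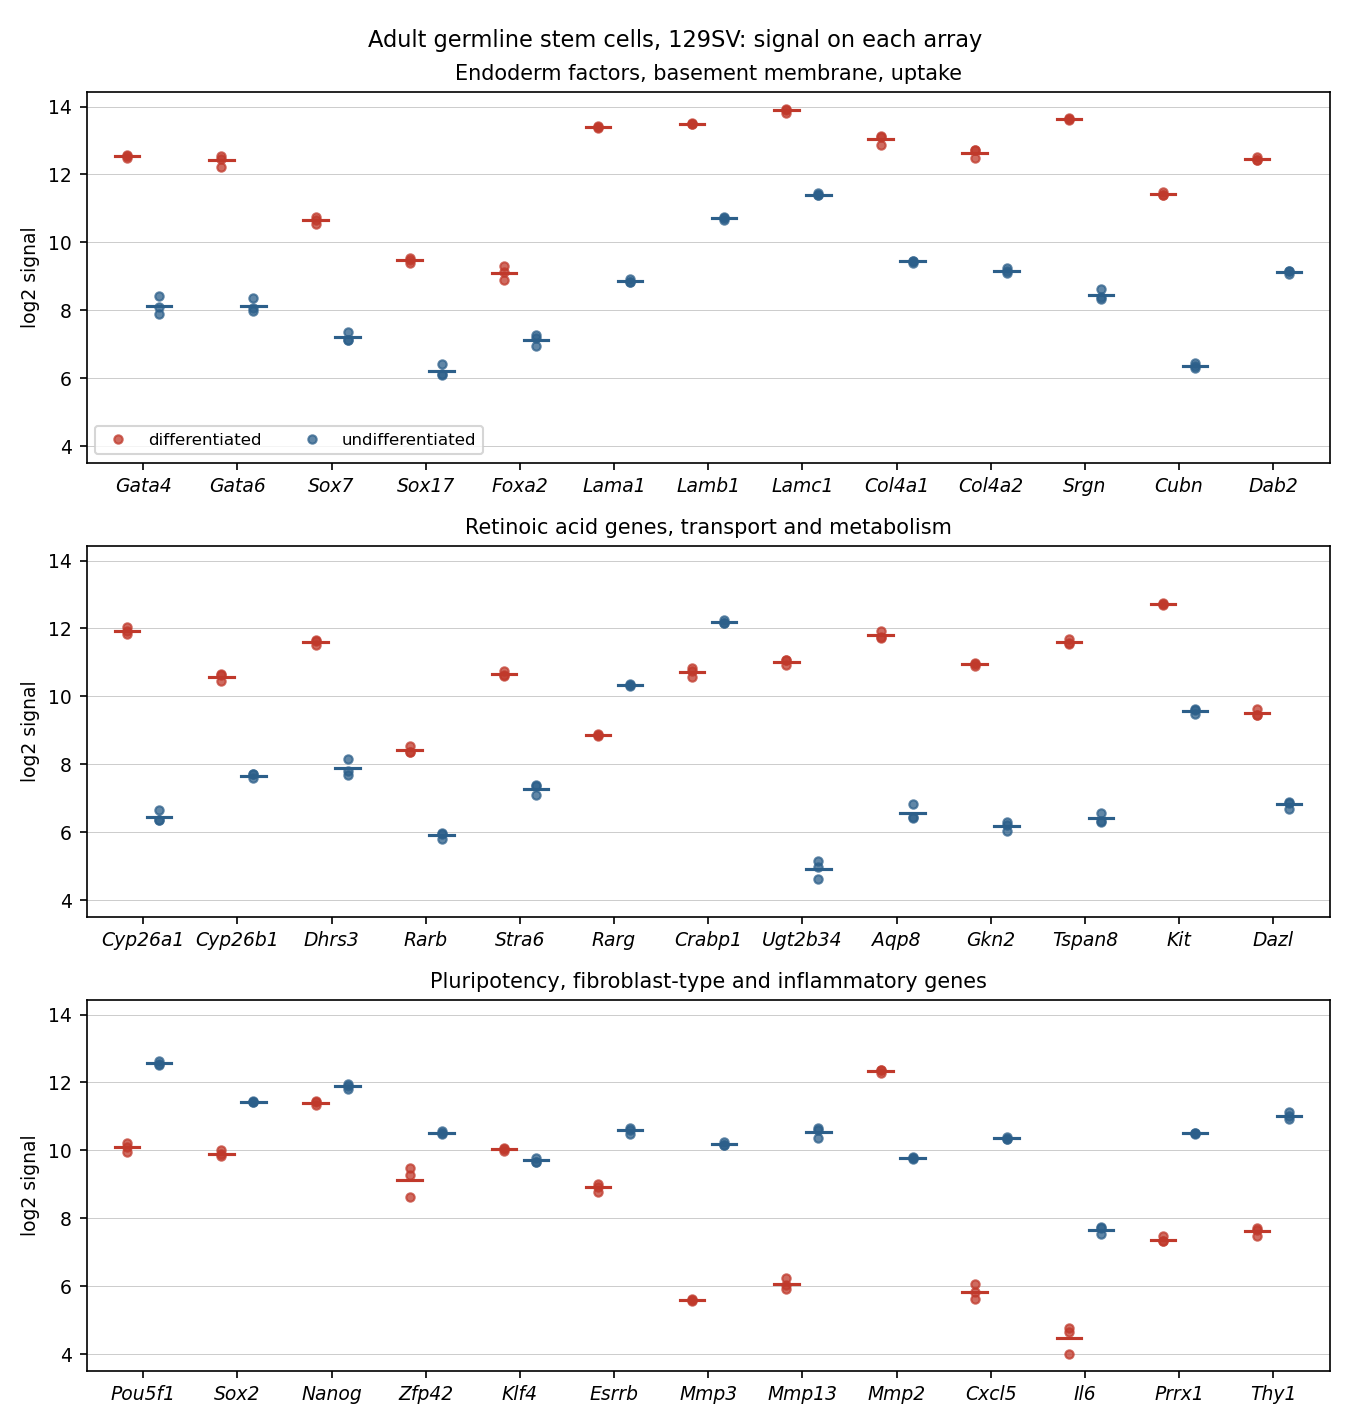
Log2 signal of 39 genes on each of the 6 arrays, with red points for the 3 differentiated and blue points for the 3 undifferentiated arrays and a bar at each mean. The states do not overlap for any gene shown.

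The largest measured rise was that of Ugt2b34, an enzyme that joins glucuronic acid to steroids and drugs. It had 10.92, 11.06 and 11.06 in differentiated cells, against 5.13, 4.62 and 4.96 in undifferentiated cells, a change of 6.11 ± 0.15 (69.1-fold, adjusted p = 5.04e-15). The undifferentiated signal lay below the lower quartile of those arrays, so the fold is uncertain. Its neighbours on chromosome 5 did not pass the test: of 8 measured genes of the Ugt2 cluster, 1 rose and 7 did not pass the test. Of 48 enzymes of xenobiotic and steroid metabolism, 15 rose, 7 fell and 26 did not pass (14 rose and 11 fell with centred arrays). Genes that the adult mouse uses in gut and kidney epithelia stood out singly in the same way. Aqp8, a water channel, had 11.74, 11.92 and 11.72 in differentiated cells, against 6.43, 6.83 and 6.42 in undifferentiated cells (5.23 ± 0.11). Of 11 aquaporins 3 rose and 2 fell (3 and 5 with centred arrays), with Aqp1 (2.02) next. Gkn2, a secreted protein of the stomach, had 10.95, 10.90 and 10.98 in differentiated cells, against 6.02, 6.30 and 6.21 in undifferentiated cells (4.77 ± 0.09), and Tspan8, a tetraspanin of epithelial membranes, had 11.69, 11.56 and 11.54 in differentiated cells, against 6.29, 6.58 and 6.34 in undifferentiated cells (5.19 ± 0.08). Of 27 secreted and mucus genes of the gut, 11 rose, 2 fell and 14 did not pass (9 rose and 6 fell with centred arrays), and 3 rose at least 2-fold. Of 30 brush border and absorption genes, 1 rose (Tspan8) and 11 fell, and Cdx2, the intestinal and trophectoderm factor, did not pass the test (adjusted p = 0.154).

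The other genes among the 20 largest rises had varied roles. Mucl3, which encodes a mucin-like protein, had 11.86, 11.87 and 11.43 in differentiated cells, against 6.58, 6.40 and 6.41 in undifferentiated cells (5.26 ± 0.13). Nxf7, of a family of nuclear RNA export factors, changed by 4.75 ± 0.13. B4galnt2, a glycosyltransferase of cell surface sugars, changed by 4.46 ± 0.08, and Enpep, an aminopeptidase that cleaves angiotensin II, by 4.42 ± 0.10. Efemp1, a fibulin of the extracellular matrix, had 11.43, 11.44 and 11.37 in differentiated cells, against 7.31, 6.96 and 6.97 in undifferentiated cells (4.33 ± 0.09). Slco2a1, a prostaglandin transporter, rose by 4.24 ± 0.07, Retreg1, a receptor for the breakdown of endoplasmic reticulum, by 4.22 ± 0.13, and Pgm5, a phosphoglucomutase-like protein of cell junctions, by 4.22 ± 0.10. Hkdc1, a hexokinase-like gene, rose by 4.12 ± 0.07. Airn, the noncoding RNA made from the paternal allele across the start of Igf2r, had 11.69, 11.54 and 11.47 in differentiated cells, against 7.64, 7.25 and 7.16 in undifferentiated cells (4.22 ± 0.13). Igf2r, the gene that Airn silences in cis in the mouse embryo, fell to 9.56, 9.54 and 9.51 in differentiated cells, against 10.31, 10.34 and 10.31 in undifferentiated cells (-0.78 ± 0.05).

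Epithelial genes were examined as keratins, junctions and uroplakins. Of 9 keratins, 6 rose and 1 fell (5 and 2 with centred arrays), with a median of 0.95. Krt8 and Krt18, the paired keratins of simple epithelia, had changes of 2.02 ± 0.07 and 2.29 ± 0.07. Krt18 had 11.90, 11.84 and 11.85 in differentiated cells, against 9.56, 9.48 and 9.66 in undifferentiated cells, and Krt19 (2.41) rose with it, while Krt17 (-1.50) fell. Of 33 genes of junctions and adhesion, 12 rose and 18 fell, with a median of -0.35. Cdh1, E-cadherin, had 10.37, 10.37 and 10.38 in differentiated cells, against 12.01, 12.14 and 12.07 in undifferentiated cells (-1.70 ± 0.05, adjusted p = 3.28e-14). Grhl2, a transcription factor that maintains E-cadherin and other junction genes, had 6.53, 6.53 and 6.46 in differentiated cells, against 8.77, 8.52 and 9.01 in undifferentiated cells (-2.26 ± 0.10). The splicing regulator Esrp1 (-1.59) and the adhesion molecule Epcam (-1.13) fell too. The desmosome genes Dsp (1.71) and Dsc2 (1.59) and the tight junction gene Tjp1 (1.13) rose. Of 6 uroplakins, membrane plaque proteins known from bladder, 2 rose and 2 fell (2 and 4 with centred arrays), with Upk1b (3.24) the highest.

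Pluripotency genes fell, though not all to the same extent. Of 18 transcription factors, 15 fell, 11 of them at least 2-fold, 2 rose and 1 did not pass, with a median of -1.21. Pou5f1 had 9.96, 10.10 and 10.21 in differentiated cells, against 12.52, 12.54 and 12.63 in undifferentiated cells, a change of -2.47 ± 0.10 (adjusted p = 1.23e-12). Sox2 had 10.001, 9.89 and 9.82 in differentiated cells, against 11.41, 11.44 and 11.45 in undifferentiated cells (-1.53 ± 0.11), and the orphan receptor gene Esrrb had 8.77, 9.01 and 8.93 in differentiated cells, against 10.60, 10.49 and 10.66 in undifferentiated cells (-1.68 ± 0.08). Zfp42, a marker of the naive state, had 9.48, 9.26 and 8.63 in differentiated cells, against 10.56, 10.47 and 10.50 in undifferentiated cells (-1.38 ± 0.15), with the third differentiated array below the other two. Nanog remained bright, with 11.41, 11.44 and 11.34 in differentiated cells, against 11.82, 11.89 and 11.96 in undifferentiated cells, a change of -0.49 ± 0.05 (adjusted p = 2.07e-07). Utf1 (-2.37) and Nr0b1 (-2.23) fell further. Klf4 rose, with 9.98, 10.06 and 10.05 in differentiated cells, against 9.66, 9.67 and 9.78 in undifferentiated cells (0.33 ± 0.06, adjusted p = 0.0002), and so did Klf5 (0.34). Of 18 signalling and RNA-binding genes of the pluripotent state, 17 fell and 0 rose, 12 of them at least 2-fold, with a median of -1.36. Lefty1, an inhibitor of Nodal, had 7.38, 7.48 and 7.54 in differentiated cells, against 10.03, 10.23 and 10.24 in undifferentiated cells (-2.70 ± 0.09). Tdgf1 (-2.58), the Nodal co-receptor, Fgf4 (-2.29) and Lin28a (-1.51) were in the same group. Genes of the primed epiblast, the later pluripotent state, fell as well: of 13 measured, 11 fell and 0 rose, among them Dnmt3b (-2.22), Lef1 (-2.07), Otx2 (-1.67) and Fgf5 (-0.74).

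Germ line genes moved in both directions. Of 33 germ cell and meiosis genes, 9 rose and 18 fell, with a median of -0.31. Dazl, an RNA-binding protein needed for germ cell development, had 9.63, 9.46 and 9.44 in differentiated cells, against 6.69, 6.89 and 6.86 in undifferentiated cells (2.69 ± 0.10, adjusted p = 6.03e-13). Stra8, which retinoic acid induces in germ cells ahead of meiosis, had 7.52, 7.55 and 7.57 in differentiated cells, against 6.54, 6.60 and 6.58 in undifferentiated cells (0.97 ± 0.12). Risers beside them were Taf7l (1.51), the meiotic cohesin gene Rec8 (1.31), Asz1 (1.21) and Scml2 (1.20). Ddx4, a helicase of germ cells, fell to 6.95, 6.68 and 6.66 in differentiated cells, against 7.58, 7.39 and 7.46 in undifferentiated cells (-0.71 ± 0.08). The synaptonemal complex gene Sycp3 (-0.69), Mael (-0.75) and Tdrd12 (-1.72) of the piRNA pathway fell as well. Among 20 genes of spermatogonial stem cells 7 rose and 10 fell. Kit, the receptor of stem cell factor on differentiating spermatogonia and other cells, had 12.75, 12.73 and 12.69 in differentiated cells, against 9.62, 9.47 and 9.59 in undifferentiated cells (3.16 ± 0.06, 8.96-fold). Sohlh2 (1.83) and Id4 (1.13) rose and Etv5 (-1.83), Bcl6b (-2.15) and Uchl1 (-2.31) fell. Gfra1, the GDNF co-receptor of spermatogonial stem cells, changed by 0.27 ± 0.09 (adjusted p = 0.0152). That call was lost with centred arrays (adjusted p = 0.109), and without undifferentiated replicate 1 (0.23, adjusted p = 0.0587) or replicate 2 (0.20, adjusted p = 0.0856). Of 14 genes of testis somatic cells, 5 rose and 1 fell. These included Gata4 and Clu (3.99), which other tissues also express, whereas Amh, Fshr and Nr5a1 did not pass the test.

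Genes of inflammation and of fibroblasts made up much of the largest falls. Mmp3, the metalloproteinase stromelysin, had 5.57, 5.61 and 5.60 in differentiated cells, against 10.17, 10.15 and 10.23 in undifferentiated cells, a change of -4.59 ± 0.05 (24.1-fold lower, adjusted p = 6.72e-19). Mmp13, a collagenase, had 6.02, 5.91 and 6.24 in differentiated cells, against 10.66, 10.38 and 10.61 in undifferentiated cells (-4.49 ± 0.08). Of 21 metalloproteinases, 14 fell, 6 of them at least 2-fold, and 3 rose. Of the 10 in the cluster on chromosome 9, 7 fell and 3 did not pass the test, with Mmp10 (-2.60) after the pair above. Mmp2, a gelatinase, went the other way with 12.38, 12.36 and 12.29 in differentiated cells, against 9.76, 9.76 and 9.80 in undifferentiated cells (2.57 ± 0.07). Of 5 inhibitors 3 rose, Reck (1.87), Timp3 (1.58) and Timp2 (0.95), and Timp1 (-2.29) fell. Of 26 cytokines and chemokines, 18 fell and 3 rose, with 13 down at least 2-fold and a median of -1.22. Cxcl5, a chemokine for neutrophils, had 5.83, 5.63 and 6.06 in differentiated cells, against 10.33, 10.33 and 10.40 in undifferentiated cells (-4.51 ± 0.10). Il6, an inflammatory cytokine, had 4.63, 4.76 and 4.01 in differentiated cells, against 7.75, 7.53 and 7.70 in undifferentiated cells (-3.20 ± 0.13). Ccl2 (-3.29), Ccl7 (-2.81), Cxcl1 (-2.74) and Ptgs2 (-2.22), which makes prostaglandin precursors, fell in the same group. Serpinb2, an inhibitor of plasminogen activators, had 5.25, 5.39 and 5.45 in differentiated cells, against 9.54, 9.53 and 9.72 in undifferentiated cells (-4.23 ± 0.15). Of 11 measured neighbours in its family on chromosome 1, itself included, 4 fell and 1 rose.

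Fibroblast genes fell in part. Of 22 fibroblast identity genes, 13 fell and 9 rose (13 and 5 with centred arrays), and of 27 matrix genes, 20 fell and 6 rose. Prrx1, a homeobox factor of mesenchyme, had 7.33, 7.32 and 7.46 in differentiated cells, against 10.50, 10.48 and 10.51 in undifferentiated cells (-3.13 ± 0.05). Thy1, a surface protein of fibroblasts that spermatogonial stem cells also carry, had 7.49, 7.66 and 7.71 in differentiated cells, against 11.002, 10.93 and 11.13 in undifferentiated cells (-3.40 ± 0.06). Bgn, a small matrix proteoglycan, had 9.12, 9.02 and 8.98 in differentiated cells, against 12.13, 12.17 and 12.11 in undifferentiated cells (-3.09 ± 0.06). Col1a1, a chain of collagen I, had 12.36, 12.45 and 12.37 in differentiated cells, against 12.59, 12.70 and 12.60 in undifferentiated cells, a fall of smaller size (-0.24 ± 0.06) that did not pass the test after quantile normalisation (adjusted p = 0.0633). Col1a2, its partner chain, changed by -0.99 ± 0.07. Col12a1 (1.64), Dcn (1.21) and Col3a1 (0.97) rose. The fibroblast markers given above, of which 6 fell and 2 rose, include genes described here, such as Prrx1 and Thy1. They are therefore not a separate observation. The part of fibroblasts in the results was not tested.

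The AP-1 factors, dimers of Fos and Jun proteins, are known to bind the promoters of Mmp13 and Mmp3 at the letters TGANTCA. These letters, on either strand, were found in 6.90% of all 19177 promoters, those of 1262 of 15614 genes. Of the 20 genes with the largest falls, 17 had a promoter, 18 promoters in all. The letters were in 5 of these 18 (27.8%), those of 4 genes, as Serpinb2 counted with 2 promoters. Other motifs were searched as well, and the TATA box letters TATAAA were in 6 of the same 18 (33.3%), against 11.5% of all promoters. Among the 22 promoters of the 20 largest rises, TATAAA was in 6 (27.3%) and the AP-1 letters in 2 (9.09%). The promoters are shown, from RefSeq and GRCm38.p6, for the pair with the largest falls of the family, with the match in capitals. Mmp13 lies at chr9:7272264-7272513 on the plus strand with the match 35 bases before the start site, and Mmp3 at chr9:7445572-7445821 on the plus strand with the match 46 bases before it.
Mmp13: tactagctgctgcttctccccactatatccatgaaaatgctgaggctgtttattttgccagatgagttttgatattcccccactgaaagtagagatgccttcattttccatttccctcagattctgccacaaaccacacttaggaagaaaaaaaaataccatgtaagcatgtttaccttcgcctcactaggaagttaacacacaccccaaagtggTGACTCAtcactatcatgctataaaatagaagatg
Mmp3: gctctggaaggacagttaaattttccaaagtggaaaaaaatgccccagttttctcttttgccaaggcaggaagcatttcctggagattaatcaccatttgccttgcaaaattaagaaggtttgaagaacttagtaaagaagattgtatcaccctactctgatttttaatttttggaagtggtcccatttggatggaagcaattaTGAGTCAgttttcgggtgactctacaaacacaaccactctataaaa
Of all promoters of genes that fell at least 2-fold, 5.78% held the AP-1 letters, and of those that rose at least 2-fold, 6.32%. Of 18 immediate-early genes, 8 rose and 5 fell (7 and 7 with centred arrays). Fos had 9.94, 9.83 and 9.58 in differentiated cells, against 7.42, 7.16 and 7.13 in undifferentiated cells (2.55 ± 0.09), Fosb (2.07) and Jun (0.89) rose, and Fosl1 (-2.10) fell.

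**Figure D3:**
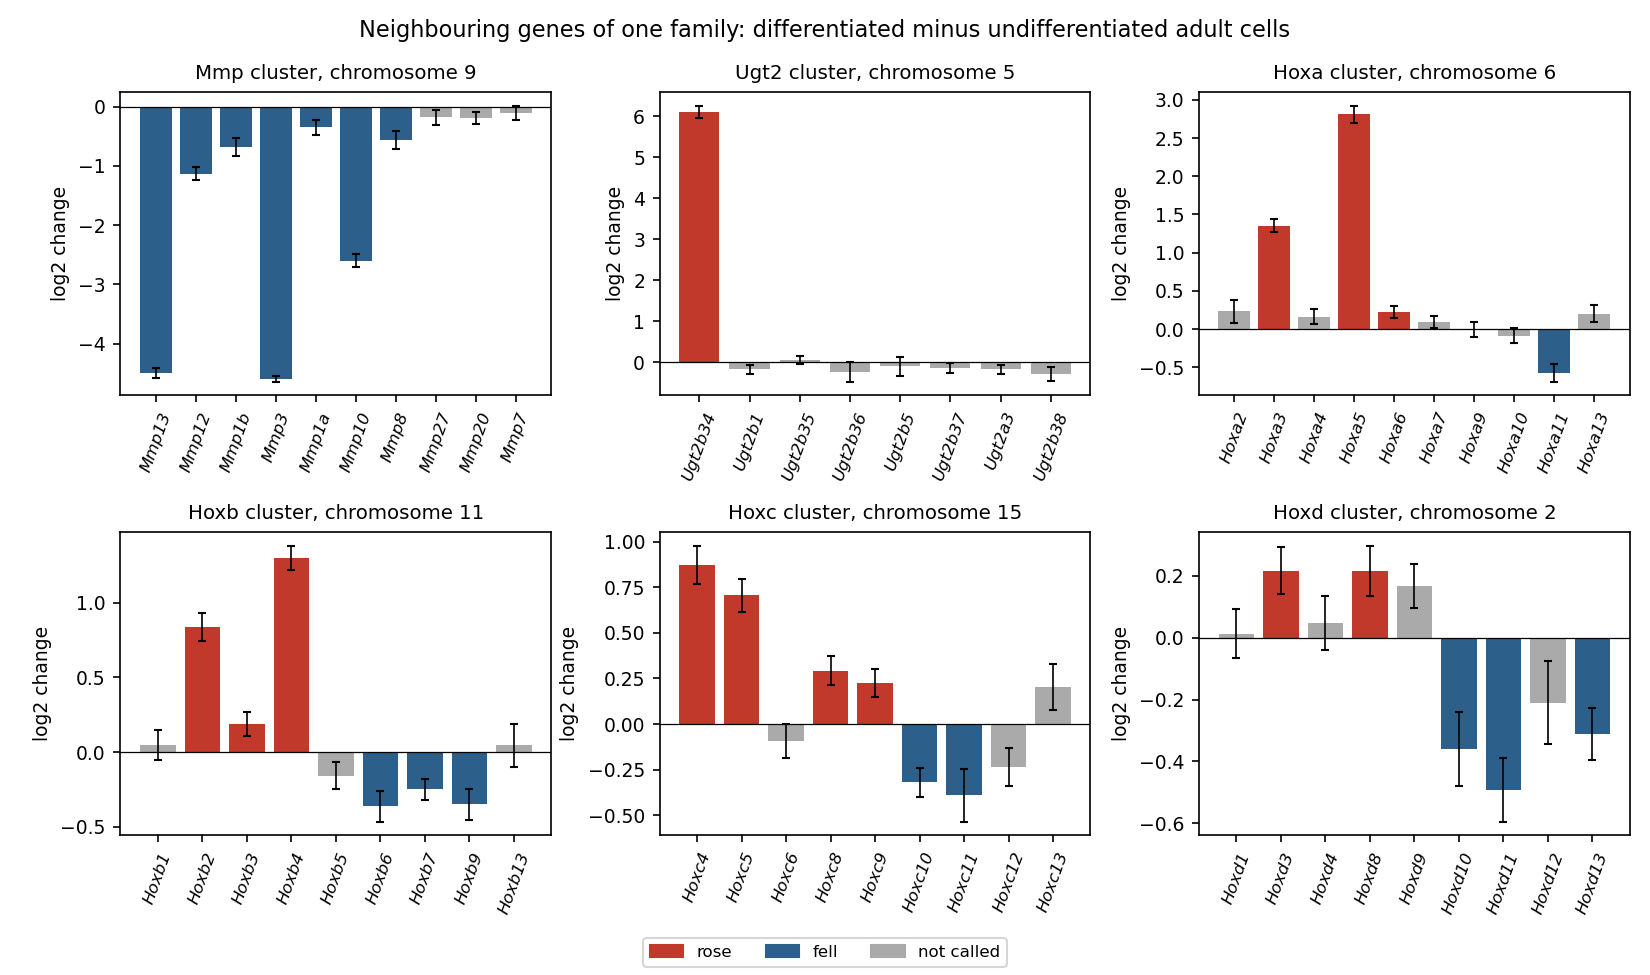
Bars give the log2 change, differentiated minus undifferentiated, with its SE, for measured members of the Mmp cluster in chromosome order, the Ugt2 cluster and the 4 Hox clusters by paralog number. Red bars rose, blue bars fell and grey bars did not pass the test. Mmp13, Mmp3 and Mmp10 lead the falls on chromosome 9, Ugt2b34 alone rises on chromosome 5, and Hoxa5 has the highest bar of the Hox genes.

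The other genes of the 20 largest falls included signals and neuronal genes. Pla2g1b, a secreted phospholipase, had 7.53, 7.77 and 7.75 in differentiated cells, against 11.45, 11.38 and 11.53 in undifferentiated cells (-3.77 ± 0.06). Inhba, the subunit of activin A, had 7.54, 7.47 and 7.66 in differentiated cells, against 11.23, 11.35 and 11.27 in undifferentiated cells (-3.72 ± 0.07), and Grem1, an inhibitor of BMP, had 6.89, 7.16 and 7.02 in differentiated cells, against 10.43, 10.48 and 10.53 in undifferentiated cells (-3.45 ± 0.11). Fgf7, a growth factor that mesenchyme makes for epithelia, changed by -3.26 ± 0.09. Trh, the precursor of thyrotropin-releasing hormone, had 8.54, 8.58 and 8.40 in differentiated cells, against 11.95, 11.91 and 12.06 in undifferentiated cells (-3.47 ± 0.06). Serpinf1, which encodes pigment epithelium-derived factor, changed by -3.17 ± 0.09 and Rgs16, which shortens G protein signals, by -3.03 ± 0.06. Ina, a neurofilament protein, changed by -3.32 ± 0.05 and Gng3, a G protein gamma subunit of neurons, by -3.11 ± 0.12. Lyz2, lysozyme of macrophages, had 5.23, 5.67 and 5.18 in differentiated cells, against 8.36, 8.21 and 8.58 in undifferentiated cells (-3.02 ± 0.14), and Laptm5, a lysosomal protein of blood cells, changed by -3.44 ± 0.08.

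Within signalling pathways, genes moved in both directions. Over all genes, 27.5% rose and 32.2% fell, and several of the counts below lie near these shares. Of 17 Nodal, BMP and TGF-beta ligands, 6 rose and 8 fell. Bmp2 had 9.97, 10.13 and 9.999 in differentiated cells, against 6.14, 5.61 and 6.19 in undifferentiated cells (4.05 ± 0.12), and Bmp6 (1.51) rose, while Nodal (-1.42), Tgfb1 (-1.47) and Bmp4 (-0.87) fell. Of 12 inhibitors 6 rose and 4 fell (4 and 4 with centred arrays), with Nog (1.96) up beside follistatin. Of 16 receptors and targets 8 rose and 6 fell, with Tgfbr2 (2.10) and Tgfbr3 (2.07) highest. Of 13 FGF ligands 3 rose and 9 fell, Fgf15 (-2.25) among them. The FGF feedback genes Etv4 (-2.65) and Spry4 (-2.34) fell, and of 16 receptors and feedback genes 4 rose and 9 fell (2 and 12 with quantile normalisation). The receptors divided, with Fgfr3 (2.14) up and Fgfr1 (-1.15) down. Of 14 Wnt ligands 2 rose, Wnt2b (2.12) first, and 7 fell (1 and 10 with centred arrays). Of 11 Wnt antagonists 4 rose, Dkk3 (2.07) and Frzb (2.01) first, and 4 fell. Of 21 Wnt receptors and targets 9 rose and 4 fell (8 and 8 with quantile normalisation), with Fzd4 (2.33) highest. In the LIF and IL6 group of 15 genes 7 rose and 5 fell, with a median of 0.07. The LIF receptor chains Lifr (2.73) and Il6st (1.85) led the rises, and Il6 (-3.20) was the lowest.

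Proliferation genes fell, most of them by less than 2-fold. Of 31 replication and mitosis genes, 26 fell, 6 of them at least 2-fold, and 1 rose, with a median of -0.68. Cdc20 (-1.38), Uhrf1 (-1.28) and Rrm2 (-1.19) fell most of those not mentioned elsewhere. Mki67, the proliferation antigen, had 11.28, 11.13 and 10.99 in differentiated cells, against 10.85, 10.81 and 10.87 in undifferentiated cells (0.29 ± 0.07, adjusted p = 0.00221). Of 21 G1 cyclins and inhibitors 13 rose and 4 fell. Ccnd1, cyclin D1, had 9.27, 9.36 and 9.24 in differentiated cells, against 11.67, 11.75 and 11.81 in undifferentiated cells (-2.45 ± 0.06), whereas the retinoblastoma family genes Rb1 (1.45) and Rbl2 (1.22) and the inhibitor Cdkn1b (1.04) rose. Among 9 DNA methylation genes 7 fell. Dnmt3l, the cofactor of the de novo enzymes, had 8.77, 8.82 and 8.73 in differentiated cells, against 11.60, 11.52 and 11.77 in undifferentiated cells (-2.86 ± 0.07), and Tet1 (-1.95) fell while Mbd2 (1.10) rose. Of 16 Polycomb and other chromatin genes 4 rose and 10 fell, with Jarid2 (-1.37) the lowest and Cbx8 (1.18) the highest. Of 15 paternally expressed imprinted genes 10 rose and 3 fell. Peg3 had 13.42, 13.34 and 13.42 in differentiated cells, against 10.06, 9.87 and 10.01 in undifferentiated cells (3.42 ± 0.07), followed by Plagl1 (3.32) and Sgce (3.00). Igf2, the embryonic growth factor, changed by 0.67 ± 0.05. Of 14 maternally expressed genes 4 rose and 7 fell, with Rian (2.11) highest and Phlda2 (-1.63) lowest.

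Markers of other lineages showed no common direction. Of 22 gastrulation genes 7 rose and 9 fell (6 and 12 with centred arrays), with Kdr (2.18) and Snai1 (1.48) up and Mixl1 not passing the test. Of 25 cardiac and muscle genes 11 rose and 4 fell (8 and 10 with centred arrays), with rises of at least 2-fold among them Myh11 (1.69), Myl7 (1.66) and Des (1.63). Of 13 endothelial genes 7 rose and 4 fell. VE-cadherin, Cdh5, had 9.94, 9.61 and 9.56 in differentiated cells, against 6.33, 6.48 and 6.07 in undifferentiated cells (3.41 ± 0.12), and Tek (2.55) and Flt1 (1.73) rose, while Pecam1 fell to 8.60, 8.58 and 8.46 in differentiated cells, against 9.68, 9.52 and 9.64 in undifferentiated cells. Of 11 blood genes 1 rose, Runx1 (0.66), and 5 fell. Of 16 macrophage genes 2 rose and 7 fell, and Tyrobp and the C1q chain C1qa did not pass the test. Of 32 neural genes 5 rose and 15 fell (3 and 20 with centred arrays). Stmn2, a neuronal microtubule protein, had 7.58, 7.66 and 7.67 in differentiated cells, against 10.31, 10.31 and 10.40 in undifferentiated cells (-2.70 ± 0.05). Tubb3 (-2.16) and Gap43 (-1.98) followed, and Pax6 did not pass the test (adjusted p = 0.228). Of 26 trophectoderm genes 13 rose and 7 fell, with Gata3 highest.

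Among Hox genes, which set position along the body axis, 12 of 37 measured rose and 9 fell. Over all genes 27.5% rose and 32.2% fell, so these counts lie near the shares over all genes. The fixed gene groups divide Hox genes by cluster, and the split by paralog group below was not among them. Of 14 measured in paralog groups 1 to 5, 8 rose and 0 fell, against 6 and 1 with centred arrays. Of 23 in groups 6 to 13, 4 rose and 9 fell, against 1 and 11 with centred arrays. Hoxa5 had 8.96, 9.08 and 9.09 in differentiated cells, against 6.26, 6.44 and 5.997 in undifferentiated cells (2.81 ± 0.11), followed by Hoxa3 (1.35) and Hoxb4 (1.30). Their cofactors Meis1 and Meis2, from a list written after values were seen, had changes of 3.47 ± 0.09 and 3.61 ± 0.08. Of 6 Meis and Pbx genes measured, 5 rose and 1 fell.

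Pathways of energy and sterol metabolism were examined last. Of 31 nuclear-encoded respiratory chain subunits, 21 fell and 2 rose (28 and 1 with centred arrays), 0 of them by 2-fold, with a median of -0.29. Of 22 glycolysis and hypoxia genes 6 rose and 10 fell, with Eno2 (1.61) up and Pgam1 (-1.19) down. Of 19 sterol synthesis genes 7 rose and 11 fell, and the pathway's brake Insig1 (2.54) rose. Of 20 amino acid stress genes 4 rose and 12 fell, with Atf3 (1.90) up and the transporter Slc7a5 (-1.55) down.

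**Figure D4:**
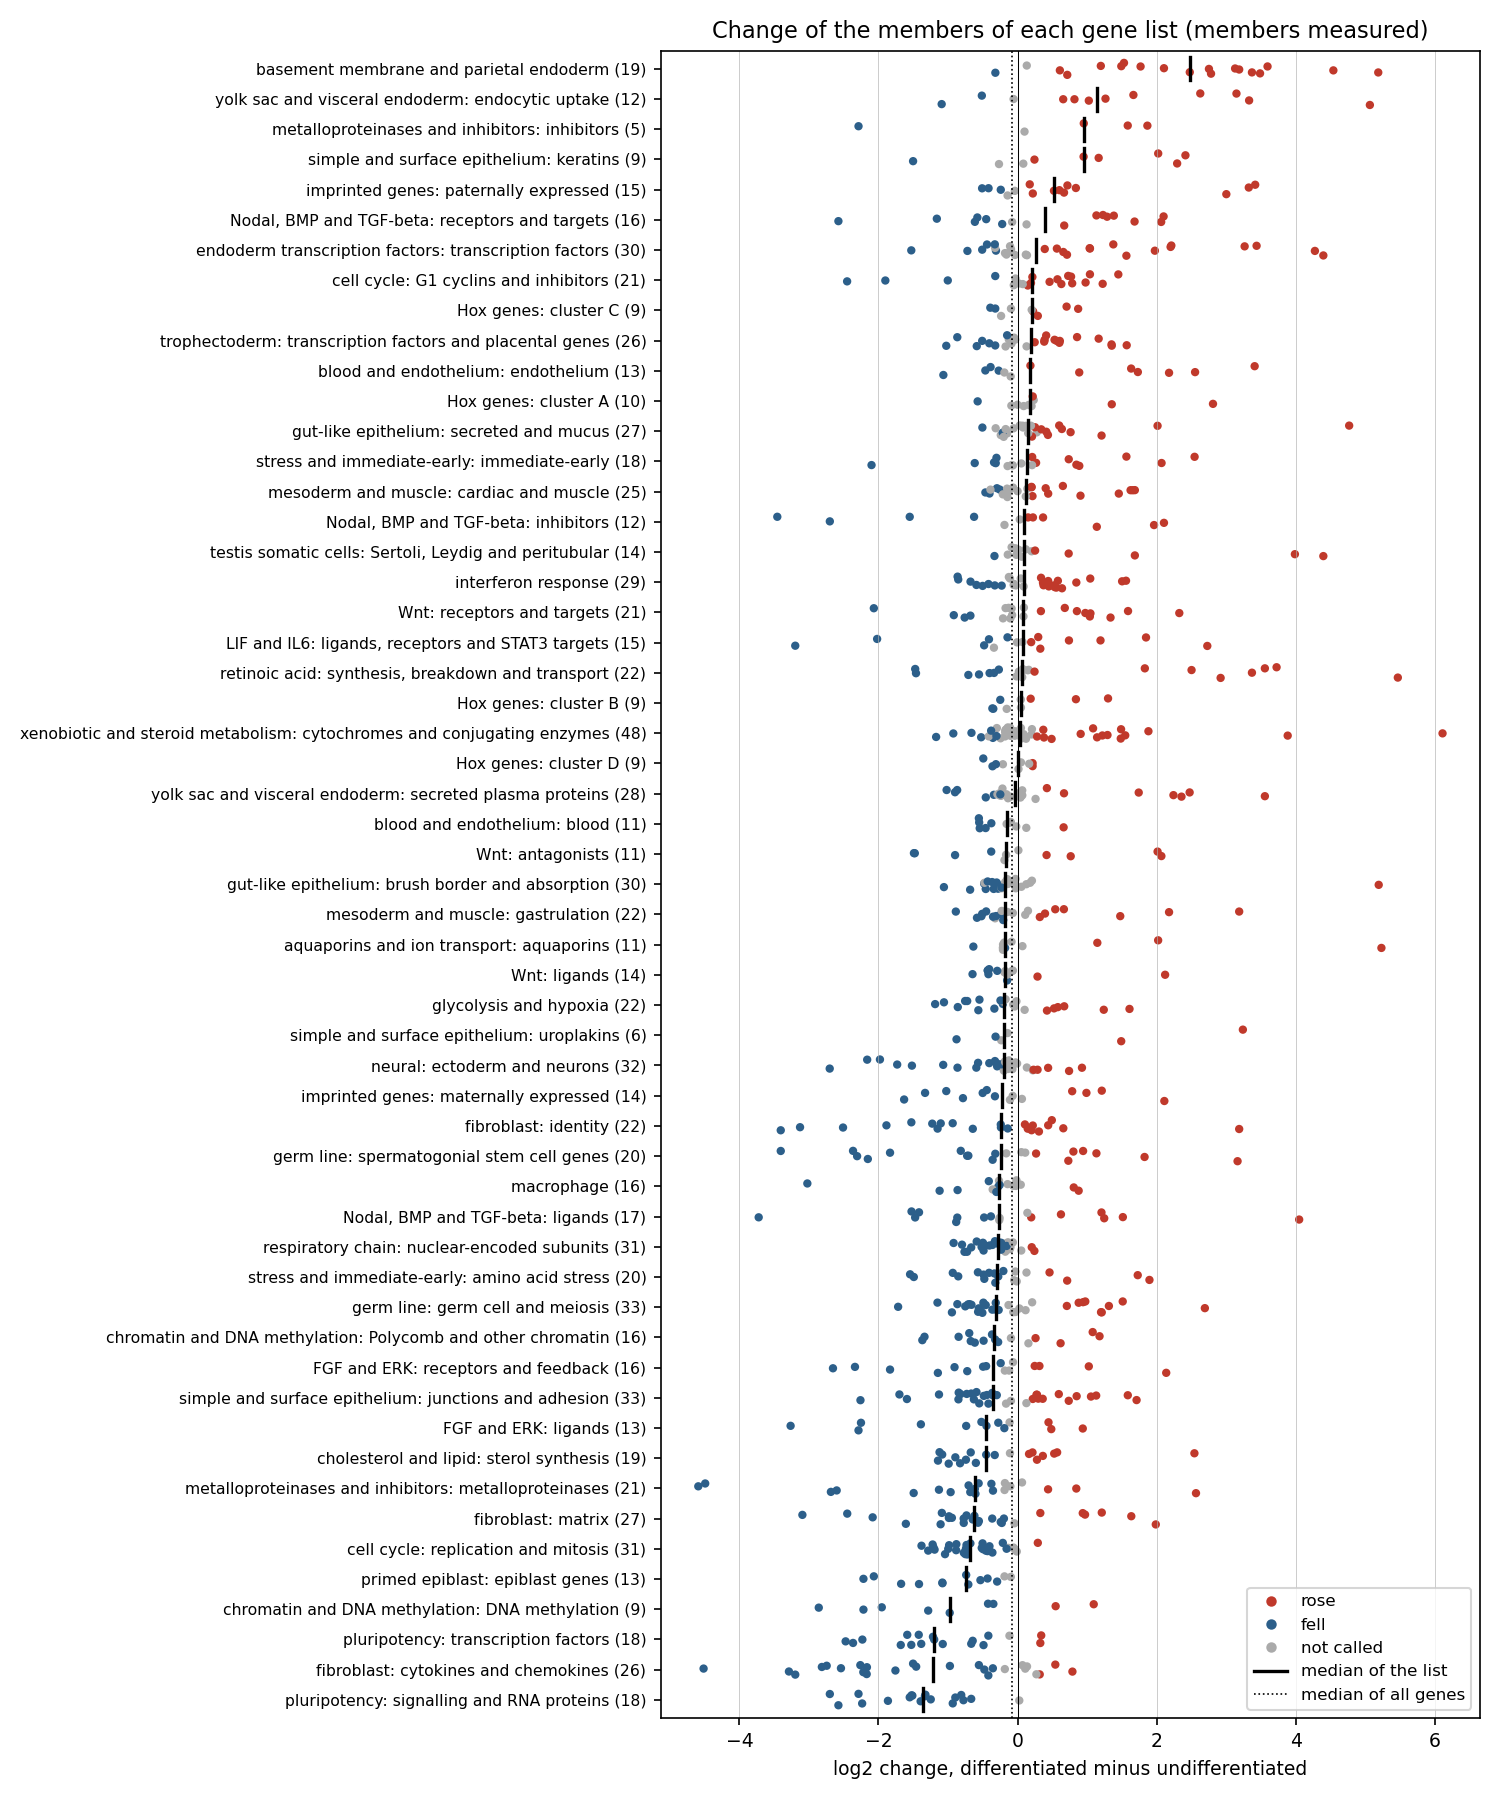
Every point is 1 measured gene, placed by its log2 change, differentiated minus undifferentiated, and the rows are the 55 gene groups with their number of measured genes. Black bars mark each group's median, the dotted line the median of all genes (-0.08), and colours give rises (red), falls (blue) and genes that did not pass the test (grey). Basement membrane genes stand at the top with a median of 2.48 and signalling genes of pluripotency at the bottom with -1.36. The groups were chosen with earlier results of these data known.

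The response of adult cells was then set against that of ES cells of the same background, which shares no array with it. The difference of the changes, adult minus ES, was tested as an interaction. It was above 0 in 24.2% of all genes (4829 genes) and below 0 in 21.5% (4281 genes), and at 2-fold or more in 5.43% (1083 genes) and 1.33% (265 genes). Of the 1502 genes that rose at least 2-fold in adult cells, 657 did so in ES cells, which is 43.7% of the adult and 68.4% of the ES list of 961. Of the 869 falls, 534 were shared, which is 61.5% of the adult and 39.4% of the ES list of 1355. One array of differentiated ES cells, replicate 3, correlated least with its group (0.992) and had the lowest weight in a fit with array weights (0.153).

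Interferon-induced genes led the positive differences, with Cxcl10, Ifit3 and Irf7 in the first places. Of 29 such genes measured, 14 rose and 8 fell in adult cells, and in ES cells 0 rose and 29 fell. Over all 19938 genes, 5553 rose and 5452 fell in ES cells, and 27.5% rose and 32.2% fell in adult cells. Cxcl10, an interferon-induced chemokine, had 8.91, 8.83 and 8.82 in differentiated cells, against 7.17, 7.45 and 7.27 in undifferentiated cells (1.56 ± 0.08). In ES cells it had 7.95, 8.22 and 7.95 after differentiation, against 13.17, 13.13 and 13.13 before (-5.10 ± 0.08), so that the responses differed by 6.66 ± 0.12 (adjusted p = 2.16e-15). Ifit3, an antiviral protein, changed by 1.05 ± 0.09 in adult cells and -4.75 ± 0.09 in ES cells, and Irf7, a factor of the interferon response, by 0.37 ± 0.09 and -4.68 ± 0.09. The adult undifferentiated arrays had 7.42, 7.13 and 7.36 for Irf7, and the ES undifferentiated arrays 12.53, 12.52 and 12.52. In the other direction, Scel, sciellin of stratified epithelia, changed by 0.74 ± 0.19 in adult cells and 4.82 ± 0.19 in ES cells. Zim1, an imprinted zinc finger gene, changed by 0.72 ± 0.11 and 4.48 ± 0.11, and Krt7 by 1.17 ± 0.07 and 3.65 ± 0.07. Upk3bl fell in adult cells (-0.32 ± 0.07) and rose in ES cells (3.01 ± 0.07).

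Genes of the groups described above also differed. Srgn rose by 5.19 ± 0.08 in adult cells and by 2.71 ± 0.08 in ES cells, a difference of 2.48 ± 0.11 (adjusted p = 5.46e-11), and Cubn by 5.07 ± 0.07 and 2.38 ± 0.07. Dazl changed by 2.69 ± 0.10 in adult cells and 0.47 ± 0.10 in ES cells. Cdh1, which fell in adult cells, changed by 0.02 ± 0.05 in ES cells, and the difference was -1.72 ± 0.07 (adjusted p = 9.97e-12). P4ha2 rose by 3.14 ± 0.06 in adult cells and 0.20 ± 0.06 in ES cells (difference 2.94 ± 0.09), and Plod2 by 2.92 ± 0.09 and 0.21 ± 0.09. Mmp13 fell in both, with a change of -4.49 ± 0.08 in adult cells and -7.33 ± 0.08 in ES cells. Its level after differentiation was 6.02, 5.91 and 6.24 in adult cells and 6.13, 6.22 and 6.06 in ES cells, and before it 10.66, 10.38 and 10.61 in adult cells and 13.48, 13.46 and 13.48 in ES cells. Igf2r fell in adult cells and rose in ES cells (1.07 ± 0.05), and the difference was -1.85 ± 0.07. Airn rose in both, by 4.22 ± 0.13 in adult cells and 3.29 ± 0.13 in ES cells.

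**Figure D5:**
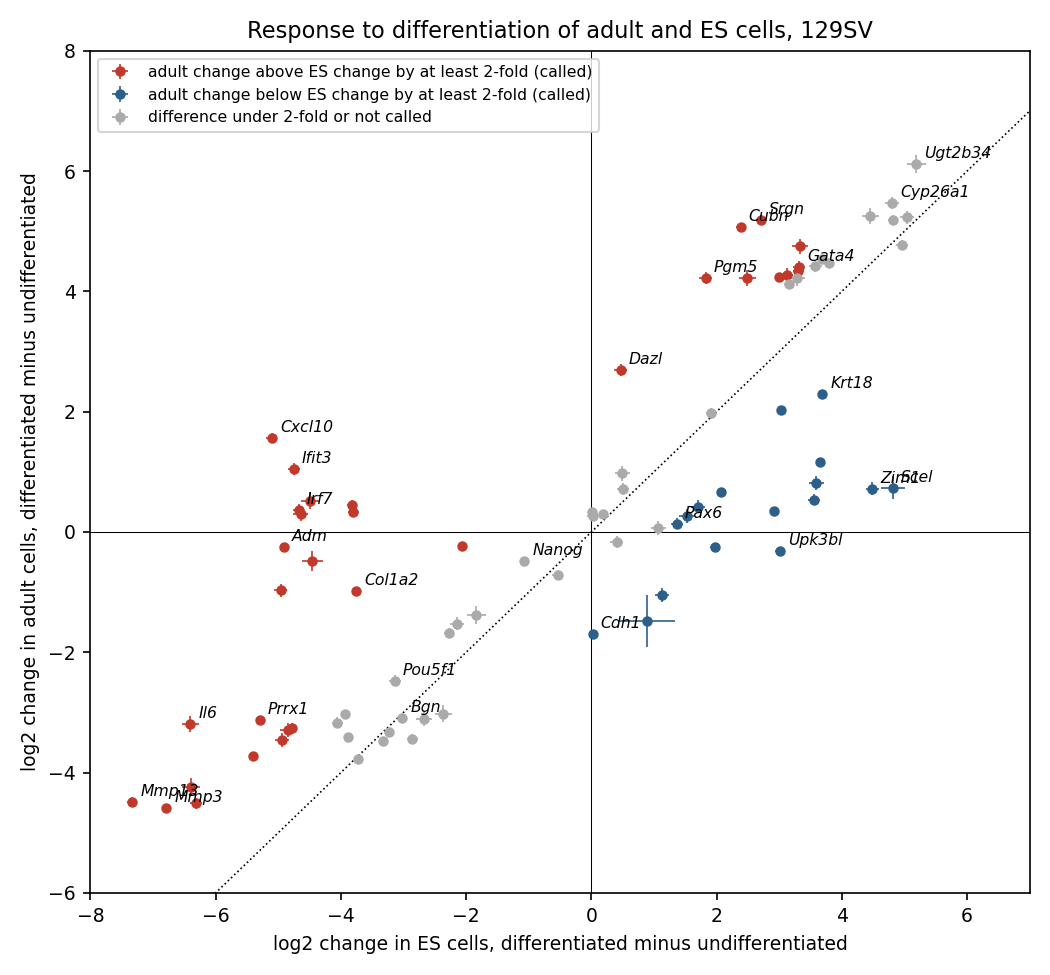
Each point is 1 gene named by the rule, with its log2 change on differentiation in ES cells on the x axis and in adult cells on the y axis, and bars give the SE of each. Red points have an adult change above, and blue points below, the ES change by at least 2-fold with a called difference, and the dotted line marks equal change. Cxcl10 lies at 1.56 in adult cells and -5.10 in ES cells, and Ugt2b34 and Cyp26a1 rise in both.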

How the data were processed

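The labels' protocols describe Trizol isolation, DNase I treatment and biotin labelling of 300 ng of RNA. The log2 values deposited by the authors come from RMA as run in Affymetrix Expression Console, which the submitters' processing notes name without a version. RMA corrects background, equalises arrays and summarises probes. The values, from 1.27 to 14.6, were used as deposited.

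Platform annotation gave 1 gene symbol to 21789 of 35556 probe sets, several symbols to 1621 and none to 12146. RefSeq (GRCm38.p6) held 21698 of those with 1 symbol. Each of 19938 genes was read from its brightest probe set over all 18 arrays. Among the 999 genes with several probe sets, 44 had calls in opposite directions.

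The comparison came from a single linear model of the 6 groups on all 18 arrays, in limma 3.58.1 and R 4.3.3 (lmFit and eBayes, 12 residual and 3.78 prior degrees of freedom). Genes were called at a Benjamini-Hochberg adjusted p under 0.05 over the 19938 genes, with at least 2-fold as a stricter count. SE values use the spread shared over groups. The fit was tested on simulated data. Alternatives were another scaling, a filter on dim genes, other fits and probe set rules, and leaving out each array.

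Named genes were the 20 largest rises and 20 largest falls without overlap, a panel of 34 genes and the members with the largest changes of 32 lists (55 groups, 993 of 1071 genes measured), the 10 most positive and 10 most negative differences of response between adult and ES cells whose adult change was called, and neighbours in a described gene family. Some other members were named as examples. The members and lists were chosen with earlier results of these data known. Some genes of the panel were not analysed here. Motifs were searched on both strands of RefSeq promoters. Of the 20 largest rises and the 20 largest falls, 17 genes each had a promoter in the table.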

Additional observations from a re-analysis of the deposited data

Results flagged for a closer look

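Of the 84 genes that the rule names, 49 had a response in adult cells that differed from that in ES cells of the same background by at least 2-fold at an adjusted p under 0.05 (limma interaction). The difference, adult change minus ES change on the log2 scale, was positive for 32 and negative for 17. Of the 84, 20 were named for the size of this very difference, so that their place here was fixed by the choice. Of the other 64, 29 differed this far, and 40 of the 84 were chosen for a large adult change, which is itself a term of the difference. Over all genes tested, 1348 of 19938 (6.76%) differed this far. No explanation was tested for any of them.

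Among genes induced by interferon it was 6.66 for Cxcl10, 5.80 for Ifit3, 5.04 for Irf7, 5.02 for Iigp1, 4.95 for Ifit3b, 4.27 for Rtp4, 4.14 for Usp18 and 3.97 for Ifi205. The vasodilator peptide gene Adm and the decoy receptor gene Il13ra2 fell less in adult cells, with differences of 4.67 and 3.99.

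Genes of inflammation and of the fibroblast groups fell in both cell types and less far in adult cells. The difference was 3.21 for Il6, 2.84 for Mmp13, 2.77 for Col1a2, 2.20 for Mmp3, 2.17 for Prrx1, 2.16 for Serpinb2, 1.83 for Col1a1, 1.80 for Cxcl5, 1.69 for Inhba, 1.56 for Ccl2, 1.52 for Fgf7 and 1.48 for Grem1. Some of these genes ended at a like low signal in both cell types and began at unlike ones. Il6 averaged 4.47 after differentiation in adult cells and 4.58 in ES cells, and before it 7.66 in adult cells and 10.99 in ES cells.

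Genes that rose further in adult cells were Cubn with a difference of 2.68, Srgn with 2.48, Pgm5 with 2.40, Dazl with 2.23, Retreg1 with 1.74, Nxf7 with 1.42, Slco2a1 with 1.24, Gata6 with 1.16, Gata4 with 1.08 and Efemp1 with 1.03.

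On the negative side, epithelial and surface genes rose further in ES cells. The difference was -4.08 for Scel, -2.78 for Psca, -2.58 for Cdcp1, -2.48 for Krt7, -1.39 for Krt18, -1.01 for Krt8 and -3.02 for Mal. It was -3.33 for Upk3bl and -2.23 for Snx31, which fell in adult cells and rose in ES cells. Cdh1 had a difference of -1.72. The imprinted genes Zim1 and Igf2 had differences of -3.77 and -1.40, the visceral endoderm markers Ttr and Afp -1.28 and -1.26, and the neural factor Pax6 -1.23. The difference was -2.18 for AY036118 and -2.38 for Usp17ld, whose adult arrays overlapped between the states.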

How the results depend on the processing

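The 11906 calls came to 1433 (970 rises and 463 falls) when limma's treat tested against a 2-fold change, by construction of that test. Leaving out 1 adult array at a time gave 10993 to 11950 calls and 2346 to 2428 at 2-fold or more. Leaving out 1 array of either cell type gave 8250 to 9716 calls for the difference of response and 1277 to 1426 at 2-fold or more, against 9110 and 1348 with all arrays, and leaving out 1 ES array gave 10253 to 10976 calls for ES cells, against 11005. The other total counts of calls over all genes stayed within 1.5 times their value. Counts within gene lists moved further with another scaling, as given beside some of those lists but not all. With centred arrays, for example, 1 brush border gene rose and 16 fell, and 6 glycolysis and hypoxia genes rose and 14 fell. Of the G1 cyclins and inhibitors 10 rose and 5 fell, and of the paternally expressed imprinted genes 8 rose and 3 fell. Of 230 genes followed through the alternatives, 225 kept their direction and their side of the threshold throughout. The exceptions were Gfra1 and Col1a1, whose calls were lost with another scaling as given above, Afp and Cdx2, which were called under some (Cdx2 at -0.27 with centred arrays, adjusted p = 0.0238), and Apoa1. Apoa1 did not pass in any and turned to -0.031 with centred arrays and to -0.049 with quantile normalisation, and it ranged from -0.038 (without differentiated replicate 3) to 0.14 when 1 array was left out. Of 55 list medians, 12 turned sign under some alternative, none of them above 0.18 in size. The deviations of same-numbered replicates correlated at 0.11, -0.10 and -0.08, and those of other-numbered ones at -0.09 to 0.15. With 3 arrays a group these values cannot settle whether the numbers pair the arrays. With a replicate block 11962 genes were called, 2371 of them at 2-fold or more, and for the difference of response 9164 and 1348. The deposited values carry no background level, so dim genes cannot be told from absent ones.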
